A study of Rattus norvegicus with 9 samples.

Results

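The effect of pelvic floor electrical stimulation on gene expression was measured by RNA sequencing of a striated pelvic floor muscle, the pubococcygeus, in female Sprague-Dawley rats that had all been given a model of stress urinary incontinence (SUI). Of the 9 libraries of the study, 6 entered the comparison, 3 from stimulated rats and 3 from untreated SUI rats, assigned by their sample titles. The 3 libraries of blank rats, which had no operation, were not compared. They entered the scaling of the libraries and the estimate of the spread of each gene, so they also moved the folds slightly. The median log2 fold change over all genes was 0.02, and -0.01 when only the 6 libraries were fitted. Every fold below is stimulated over untreated SUI, over the 16256 genes of 30518 rows that passed a filter on low counts.

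Rats of both compared groups had been ovariectomised on both sides, and the vagina had been distended for 4 h with an 8 Fr balloon catheter that held 3 mL of saline under a load of 120 g. Stimulated rats were then treated through the vagina, starting 1 week after the operation, with monophasic square pulses of 200 µs at 50 Hz and 20 mA. Sessions lasted 30 min, on 5 days a week, for 2 weeks. SUI rats had no treatment after the operation and no sham stimulation is described, so current, probe and handling cannot be told apart, and the loss of ovarian hormones and the distension injury are shared by both groups. The library names call the untreated model "sham", and the titles, which give the full operation, were followed. Each group held 8 rats, and which rats the 3 libraries of each group came from, or whether rats were pooled, is not stated in the labels. The p-values therefore measure the spread between these libraries. All rats had a leak point pressure test, and 4 of each group magnetic resonance imaging, before the muscle was taken. The ages of the rats, the delay from the last session to collection and whether the sequenced rats were imaged are not stated in the labels.

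The pubococcygeus supports the urethra and vagina, and stretch or nerve injury at its attachment weakens that support. Electrical stimulation makes muscle contract without voluntary effort, which loads the fibres and the connective tissue around them. Muscle responds to load through genes for matrix and cytoskeleton, which are driven by the TGF-beta, YAP/TAZ and MRTF pathways, and it responds to disuse through ubiquitin ligases and the proteasome.

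The SUI libraries held 87163057 to 110699836 counts and the stimulated libraries 129903845 to 147650284, so every stimulated library was deeper than every SUI library. Mitochondrial transcripts took 13.4% to 17.7% of the counts in these 6 libraries. Blank replicate 1, which entered the scaling and the spread, stood apart. It had 50833480 counts, 32.9% of them mitochondrial, and a median correlation across genes of 0.920 with the other libraries. Without it, 2224 genes had an unadjusted edgeR p under 0.05, against 1300 with all 9 libraries. The 2 libraries least like the rest of the 6 were SUI replicate 1, with a median correlation of 0.949 with the other libraries across genes (the other 4 had 0.961 to 0.968), and stimulated replicate 2, with 0.954. The defining transcripts of striated muscle were abundant in every library: Ckm, the muscle creatine kinase, ranged from 11789.5 to 15432 FPKM (fragments scaled by transcript length and depth), and Acta1, skeletal actin, from 22429 to 32045 FPKM. Bulk RNA gives a level for the whole piece of muscle, so fewer cells of a type and less RNA per cell cannot be told apart.

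With edgeR's quasi-likelihood test, 2 of 16256 genes (0.0123%) passed an adjusted p of 0.05: Ccn2 rose and Plpp6 fell. Both had an adjusted p of 0.117 when only the 6 libraries were fitted. At an unadjusted edgeR p under 0.05, 850 genes (5.23%) were higher after stimulation and 450 (2.77%) lower, where 813 would be the mean count in both directions together if no gene differed. The share of higher genes among these, 65.4%, differed between fits: it was 46.6% with library totals alone, 49.5% when only the 6 libraries were fitted and 47.4% without blank replicate 1. All 3 stimulated libraries lay above all 3 SUI libraries for 1548 genes (9.52%) and below them for 1508 (9.28%). DESeq2, fitted to the same libraries as an alternative, called 153 genes higher (0.944%) and 55 lower (0.339%) of 16211 at an adjusted p under 0.05. Of its 208 calls, 201 had groups that did not overlap, and 43 were also among the 48 calls of limma's voom with sample weights.

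**Figure D1:**
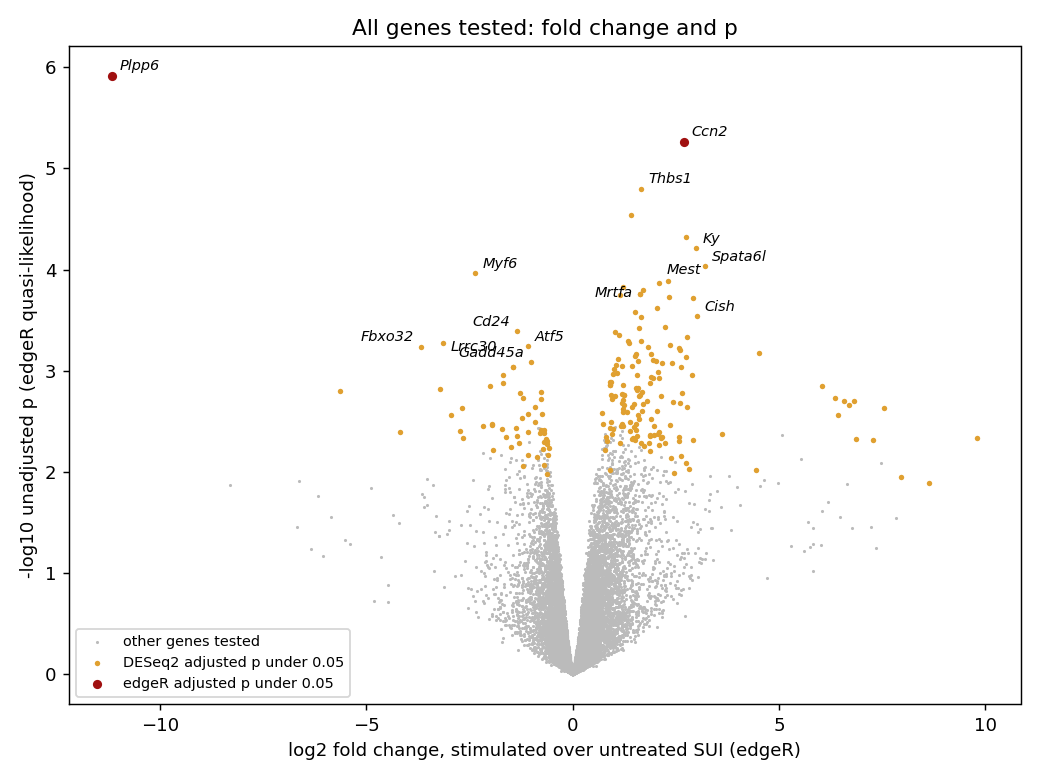
Each point is a gene of the 16256 tested, with the log2 fold change of stimulated over untreated SUI on the x axis and the −log10 of the unadjusted edgeR p on the y axis. Ccn2 and Plpp6, in dark red, passed edgeR's adjusted threshold, DESeq2's further calls are in orange, and the fitted fold of Plpp6, which has no counts after stimulation, depends on the prior count and is no estimate of size.

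Ccn2 encodes connective tissue growth factor, a secreted matrix protein that cells make under mechanical load and TGF-beta. It measured 11.1, 15.0 and 17.6 CPM in the 3 SUI libraries, in order of replicate, and 65.6, 97.8 and 119 CPM in the 3 stimulated libraries, where CPM are counts scaled to a common library size. The lowest stimulated library was more than 3 times the highest SUI library. The log2 fold change was 2.69 ± 0.30 (SE; edgeR adjusted p = 0.0444, DESeq2 adjusted p = 3.87e-14), and it stayed between 2.49 and 2.89 when each library was left out in turn. The call was less stable than the fold: it was lost in 8 of these 9 fits (all but the fit without stimulated replicate 1), with edgeR adjusted p from 0.0531 without blank replicate 1 to 0.298 without SUI replicate 1. Its length-scaled level was 4.71 ± 0.423 FPKM in SUI and 28.2 ± 9.34 after stimulation (SD, n = 3).

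The promoter of Ccn2 is shown because the gene is a textbook target of the TEAD factors, the DNA-binding partners of YAP and TAZ. In the 300 bases around its RefSeq start (GRCr8 chr1:22624565-22624864, minus strand, given 5′ to 3′ along the gene), the TEAD motif GGAATG, searched on both strands and set in capitals, occurs 3 times.

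Ccn2: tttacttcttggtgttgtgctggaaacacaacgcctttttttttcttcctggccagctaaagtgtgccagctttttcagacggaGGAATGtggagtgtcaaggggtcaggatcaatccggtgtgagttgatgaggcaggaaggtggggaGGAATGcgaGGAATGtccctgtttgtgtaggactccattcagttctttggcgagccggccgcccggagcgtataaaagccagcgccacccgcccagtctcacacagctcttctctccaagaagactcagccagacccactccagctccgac

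Of 33469 RefSeq promoters of the same length, 14.2% hold this motif at least once and 0.0956%, 32 promoters, at least 3 times. No other motif searched (STAT, E-box, FoxO, CArG or MEF2) occurs in this window. The match describes these letters and does not show that a factor was bound.

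Among YAP/TAZ-TEAD targets, 2 of 22, Ccn2 included, were higher and 1 lower without overlap, against 9.52% and 9.28% of all genes. Of 22 tested, 16 were higher and 6 lower, with a median log2 fold change of 0.25 (0.39 without SUI replicate 2) against 0.02 over all genes, and edgeR called Ccn2 and no other member. Ccn1, its closest relative among them and a classical target, measured 18.7, 14.3 and 33.5 CPM in untreated and 15.3, 19.1 and 31.8 CPM in stimulated muscle, so its groups overlapped (log2 fold change -0.01 ± 0.46 SE). Ankrd1, a load-induced repeat protein of the sarcomere, likewise overlapped, at 6.30, 4.52 and 3.31 CPM without and 2.62, 5.08 and 9.40 CPM with stimulation. Asap1, a regulator of small GTPases at adhesions, was the other member with separated and higher stimulated values, at 7.19, 7.61 and 7.05 CPM in SUI and 14.3, 17.2 and 12.7 CPM after stimulation (log2 fold change 1.01 ± 0.24 SE, edgeR adjusted p = 0.319, DESeq2 adjusted p = 0.0299). Promoter sequences were found for 15 of the tested targets, and the motif occurs in 6 of them, 3 of which had a positive fold. The kinases and factors of the Hippo pathway itself were split, 7 higher and 9 lower of 16, and none was called by either test.

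Thbs1, which encodes thrombospondin 1, an adhesive glycoprotein that can activate latent TGF-beta, had little spread within each group. It measured 4.75, 5.28 and 5.06 CPM in untreated and 14.9, 17.2 and 15.7 CPM in stimulated muscle. The 3 libraries of each group lay close together and far from the other group, at 1.66 ± 0.21 (SE; edgeR adjusted p = 0.0861, DESeq2 adjusted p = 1.38e-08), and leaving out any library kept the fold between 1.61 and 1.71. Mrtfa, the actin-sensing coactivator that drives SRF targets, measured 8.54, 11.7 and 9.40 CPM without and 25.3, 36.8 and 29.1 CPM with stimulation, again without overlap (log2 fold change 1.62 ± 0.28 SE, edgeR adjusted p = 0.181, DESeq2 adjusted p = 0.000173). Diaph1, an actin nucleator upstream of MRTF, was lower without overlap at 178, 112 and 111 CPM in SUI and 69.8, 55.8 and 64.9 CPM after stimulation. Of 18 SRF-MRTF targets and cofactors, 17 were higher, 6 of them without overlap, against 9.52% of all genes. The median of the 18 was 0.32, and with library totals alone 13 of the 18 were higher. Without stimulated replicate 2, 12 were higher and the median was 0.15, and without SUI replicate 1 it was 0.55. Tpm4, a cytoskeletal tropomyosin, measured 46.2, 57.2 and 46.9 CPM in untreated and 69.7, 76.9 and 61.7 CPM in stimulated muscle. Abra, an activator of SRF in striated muscle, was the exception, at 415, 659 and 631 CPM without and 478, 129 and 231 CPM with stimulation, with overlap. Ky, a Z-disc protein needed for muscle growth, measured 27.4, 16.1 and 49.7 CPM in SUI and 198, 279 and 259 CPM after stimulation. Its lowest stimulated value was about 4 times its highest SUI value, at 2.98 ± 0.44 (SE; edgeR adjusted p = 0.166, DESeq2 adjusted p = 2.59e-08).

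TGF-beta pathway genes had no common direction: 10 of 18 ligands, receptors and Smads were higher on the main scale, 8 with library totals. Of the 18, 5 were higher and 1 lower without overlap, against 9.52% and 9.28% of all genes. None of the list was called by either test. The ligand Tgfb1 overlapped at 6.87, 3.82 and 2.32 CPM in untreated and 2.88, 8.28 and 6.34 CPM in stimulated muscle. Skil, a feedback repressor of Smads, measured 9.59, 13.9 and 12.1 CPM without and 18.02, 17.1 and 33.5 CPM with stimulation. Smurf1, a ligase that removes receptors and Smads, measured 15.8, 18.1 and 26.8 CPM in SUI and 43.0, 30.1 and 28.2 CPM after stimulation. Both were separated between groups but had edgeR adjusted p of 0.499 and 0.517.

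Plpp6, a phosphatase of isoprenoid and presqualene phosphates, had 343, 158 and 323 counts in the SUI libraries and 0 in each of the 3 stimulated libraries. With 3 counts over the stimulated group as the floor, it was at least 348-fold lower (edgeR adjusted p = 0.0198), and every SUI library lay far above that floor. The call was lost without SUI replicate 1 or 3, blank replicate 1 or 2, or stimulated replicate 2 or 3, with edgeR adjusted p up to 0.134. It lies on chromosome 1 at 226679100-226681949, plus strand, in the files' build mRatBN7.2. Spata6l, a relative of a sperm structural protein, spans it on the minus strand at 226641518-226682884 and had the opposite pattern, with 20, 57 and 51 counts in SUI and 396, 621 and 501 after stimulation (log2 fold change 3.21 ± 0.50 SE, edgeR adjusted p = 0.181, DESeq2 adjusted p = 2.03e-07). No strand setting of the counting is stated, so reads of sequence that the overlapping genes share cannot be told apart, and neither direction should be read without the other. At 0.839 ± 0.375 FPKM in SUI (SD, n = 3), Plpp6 was also a scarce transcript.

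**Figure D2:**
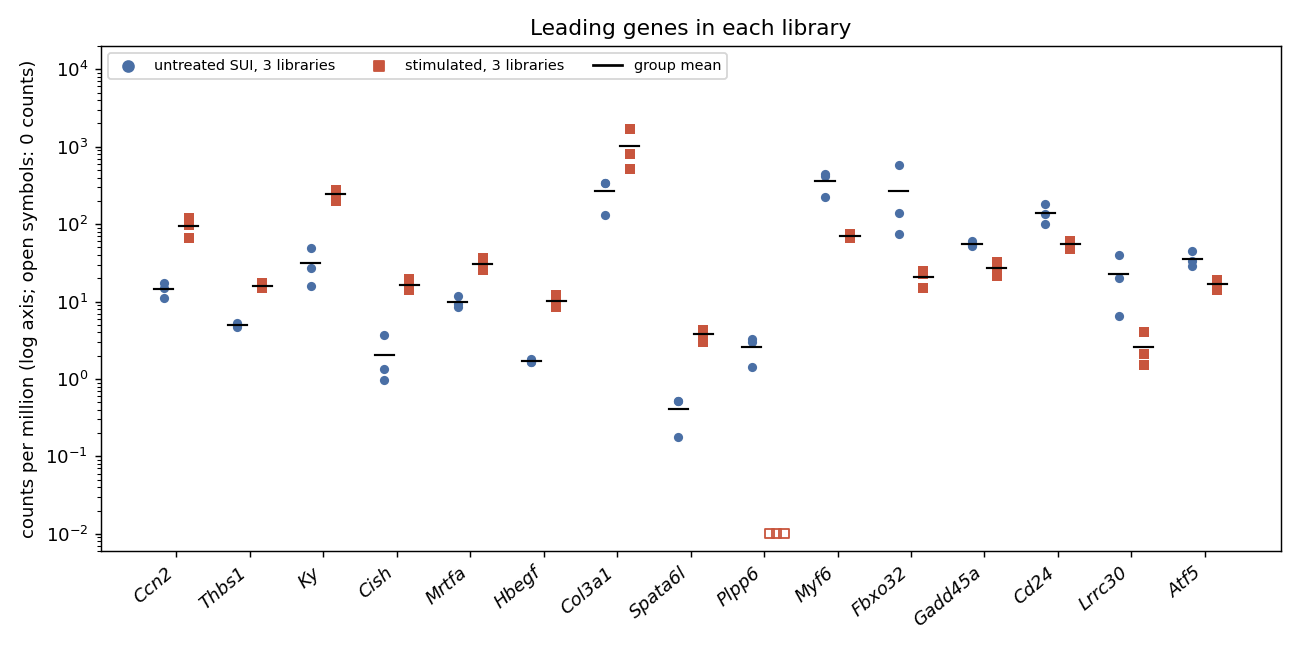
CPM (log axis) of 15 genes in each of the 3 untreated SUI libraries (circles) and 3 stimulated libraries (squares), with the group mean as a bar and open squares for 0 counts. The groups do not overlap for any of the genes shown, which the naming rule required of genes it ranked by p, fold or FPKM difference. The SUI libraries of Fbxo32 spread from 74.8 to 583, and the stimulated libraries of Col3a1 from 520.3 to 1709.

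Genes of the extracellular matrix were higher after stimulation, most evenly in the basement membrane, the sheet of collagen IV, laminin and nidogen around each fibre. All 22 basement membrane and collagen VI genes tested had positive folds, 12 of them without overlap between groups, against 9.52% of all genes. The median log2 fold change was 0.84. With library totals alone 21 of the 22 were higher. None was called by edgeR. DESeq2 called 4 higher, against 0.944% of the genes it tested: Col6a6, Nid2, Col15a1 and the perlecan gene Hspg2. Col6a6, a chain of the beaded microfibrils that tie fibres to the matrix, measured 2.75, 2.42 and 6.02 CPM in untreated and 15.3, 27.7 and 13.2 CPM in stimulated muscle (log2 fold change 2.33 ± 0.40 SE, edgeR adjusted p = 0.181, DESeq2 adjusted p = 1.99e-05). Nid2, which bridges laminin and collagen IV, measured 13.3, 8.80 and 18.1 CPM without and 32.4, 51.9 and 38.02 CPM with stimulation (log2 fold change 1.61 ± 0.30 SE, edgeR adjusted p = 0.266, DESeq2 adjusted p = 0.000478). The lowest stimulated library of each was above the highest SUI library. Within the list the 4 collagen VI chains had a median of 1.05, the 6 collagen IV chains 0.52 and the 6 laminin chains 0.42.

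Fibrillar collagens were higher too, but unevenly. Col1a1, the main chain of collagen I, measured 73.2, 38.7 and 75.3 CPM in SUI and 108, 671 and 241 CPM after stimulation. Col3a1, of collagen III, measured 341, 132 and 340.3 CPM in untreated and 520.3, 1709 and 800.1 CPM in stimulated muscle. In both, stimulated replicate 2 was the highest and stimulated replicate 1 the lowest of its group, at 108 against 75.3 CPM in the highest SUI library for Col1a1. Their folds were 2.44 ± 0.59 (SE; edgeR adjusted p = 0.332, DESeq2 adjusted p = 0.00325) and 1.90 ± 0.48 (SE; edgeR adjusted p = 0.390, DESeq2 adjusted p = 0.0116). Without stimulated replicate 2 that of Col1a1 was 1.48. Col5a1, which sets fibril diameter, measured 15.4, 13.2 and 17.9 CPM without and 30.3, 91.9 and 42.4 CPM with stimulation. Of 9 fibrillar collagen genes, 8 were higher and Col2a1, of cartilage, was lower with overlap. Per length the summed fibrillar collagens came to 135, 50.7 and 98.8 FPKM in SUI and 130.1, 582 and 241 after stimulation, so stimulated replicate 1 lay below SUI replicate 1 on that scale.

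Other matrix lists had positive medians as well. All 16 matricellular glycoproteins were higher (15 with library totals; median 1.13, and 0.55 without stimulated replicate 2), as were 10 of 11 small leucine-rich proteoglycans (median 0.88, 0.49 without that library) and 18 of 20 elastic fibre and cross-linking genes (median 0.59, 0.22 without that library). Sparc, a collagen chaperone of the matrix, measured 316, 159.8 and 291 CPM in SUI and 458, 831 and 496 CPM after stimulation. Lum, the collagen-binding proteoglycan lumican, measured 21.9, 22.9 and 38.7 CPM in untreated and 50.9, 124 and 71.3 CPM in stimulated muscle. The cross-linking enzymes parted. Loxl2 measured 7.76, 5.75 and 8.09 CPM without and 14.8, 32.0 and 16.8 CPM with stimulation, higher without overlap. Lox measured 8.77, 4.47 and 3.64 CPM in SUI and 1.87, 3.31 and 1.74 CPM after stimulation, lower without overlap (log2 fold change -1.29 ± 0.41 SE). Procollagen processing genes were less shifted (13 of 17 higher, median 0.30, 0.13 without it). Matrix proteases and their inhibitors were split, 14 higher and 10 lower, and their median turned from 0.26 to -0.18 without stimulated replicate 2. Adamts20, a protease of the proteoglycan versican, measured 5.17, 5.93 and 6.18 CPM in untreated and 16.0, 21.4 and 16.3 CPM in stimulated muscle. Mmp15, a membrane metalloprotease, measured 21.3, 15.0 and 24.7 CPM without and 43.7, 43.8 and 51.6 CPM with stimulation. Vcan, versican itself, measured 3.88, 4.27 and 4.09 CPM in SUI and 7.65, 17.6 and 10.3 CPM after stimulation.

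Markers of fibro-adipogenic progenitors, stromal cells that make muscle matrix, were higher as well. Lum, Dcn, Mfap5 and Smoc2 among them are also counted in the matrix lists above. All 12 tested were higher (median 1.26), 3 of them, Lum and Smoc2 included, without overlap, against 9.52% of all genes. Their summed level was 867, 628 and 507 FPKM in SUI and 465, 1482 and 864 after stimulation, lowest of all 6 in stimulated replicate 1 and highest in stimulated replicate 2. Cd34 measured 10.5, 6.82 and 5.47 CPM in untreated and 9.42, 50.3 and 16.99 CPM in stimulated muscle, with overlap. Without stimulated replicate 2 the median of these markers was 0.55, and that of the basement membrane genes 0.58. The part of cell composition in the matrix difference was not tested.

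Of 24 muscle wasting genes tested, 2 were lower and 2 higher without overlap, against 9.28% and 9.52% of all genes. Fbxo32, which encodes the F-box ligase atrogin-1 that marks muscle proteins for breakdown, measured 583, 74.8 and 138 CPM without and 25.0, 14.9 and 22.6 CPM with stimulation. The groups did not overlap, and SUI replicate 1 was about 4 times the next SUI library. The log2 fold change was -3.67 ± 0.73 (SE; edgeR adjusted p = 0.266, DESeq2 adjusted p = 1.33e-05), and -2.35 without SUI replicate 1. Gadd45a, a stress gene of denervated muscle, was tighter, at 53.9, 60.0 and 51.9 CPM in SUI and 32.2, 21.5 and 28.8 CPM after stimulation (log2 fold change -1.01 ± 0.21 SE, edgeR adjusted p = 0.274, DESeq2 adjusted p = 0.00357). Trim63, the ligase MuRF1, overlapped at 1690.4, 429 and 647 CPM in untreated and 884, 224 and 462 CPM in stimulated muscle (log2 fold change -0.82 ± 0.64 SE). Mstn, myostatin, the secreted brake on muscle size, overlapped at 52.0, 8.10 and 13.2 CPM without and 13.1, 7.26 and 15.9 CPM with stimulation. Of these atrophy ligases and FoxO genes, 16 were lower and 8 higher, a median of -0.26 that was -0.09 without SUI replicate 1. The 2 members that stood higher without overlap were a transcription factor and a ligase. Foxo6, a FoxO factor, measured 2.92, 4.64 and 2.91 CPM in SUI and 7.60, 12.7 and 12.5 CPM after stimulation. Trim55, the ligase MuRF2, measured 24.7, 37.7 and 41.8 CPM in untreated and 63.3, 59.3 and 53.4 CPM in stimulated muscle.

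Proteasome subunits were lower as a block. All 31 had negative folds, with a median log2 fold change of -0.44. In 18 of them every stimulated library lay below every SUI library, against 9.28% of all genes. The 31 of 31 held with library totals and without SUI replicate 1, where the median was -0.25. Without stimulated replicate 2 it was 30 of 31. No subunit passed edgeR or DESeq2. An unadjusted edgeR p under 0.05 was found for 11, all lower, against 2.77% of all genes. The 2 parts of the complex differed in separation: of 17 subunits of the 19S cap, which unfolds ubiquitin-tagged proteins, 15 did not overlap (median -0.54), and of 14 subunits of the 20S core, which cuts them, 3 did not (median -0.36). Psmd4, the ubiquitin receptor of the cap, measured 146, 110.0 and 109 CPM without and 85.9, 66.9 and 74.3 CPM with stimulation (log2 fold change -0.68 ± 0.20 SE, edgeR adjusted p = 0.480, DESeq2 adjusted p = 0.0539). Psmc4, a cap ATPase, measured 118, 74.4 and 75.8 CPM in SUI and 65.0, 50.4 and 55.0 CPM after stimulation. Psmb5, the catalytic subunit with chymotrypsin-like activity, measured 73.3, 79.4 and 86.3 CPM in untreated and 77.1, 75.2 and 75.3 CPM in stimulated muscle. Psmd4 and Psmc4 were separated between groups and Psmb5 was not. The summed level of the 31 subunits was 2742, 1629.5 and 1594 FPKM in SUI and 1344, 1336 and 1332 after stimulation, with SUI replicate 1 far above the others.

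Genes that build ribosomes were also lower: 21 of 22 had negative folds, 10 without overlap, against 9.28% of all genes (median -0.33). None was called by either test. Rrp12, needed to export ribosomal subunits, measured 98.5, 60.0 and 54.6 CPM without and 37.9, 27.3 and 37.6 CPM with stimulation (log2 fold change -1.05 ± 0.29 SE). Bop1, which processes ribosomal RNA, measured 34.1, 25.4 and 24.9 CPM in SUI and 17.6, 14.3 and 15.4 CPM after stimulation. Autophagy and mitophagy genes were lower in 22 of 26 (median -0.19, -0.13 without SUI replicate 1 and -0.12 without stimulated replicate 2). Of the 26, 4 were lower and 1 higher without overlap, against 9.28% and 9.52% of all genes. Sqstm1, the cargo receptor p62, measured 866, 646 and 544 CPM in untreated and 439.8, 294 and 391 CPM in stimulated muscle. The lysosomal transcription factors parted. Tfe3 measured 33.8, 22.1 and 17.6 CPM without and 17.4, 13.4 and 16.96 CPM with stimulation, narrowly lower without overlap. Tfeb measured 40.6, 43.9 and 44.0 CPM in SUI and 58.6, 55.3 and 63.4 CPM after stimulation, higher without overlap. Unfolded protein and integrated stress response genes were lower in 18 of 23 (median -0.24, -0.06 without SUI replicate 1, -0.14 without stimulated replicate 1 and -0.36 without SUI replicate 2). Atf5, a factor of the mitochondrial unfolded protein response, measured 44.5, 29.2 and 33.7 CPM in untreated and 14.3, 18.8 and 17.3 CPM in stimulated muscle (log2 fold change -1.09 ± 0.22 SE, edgeR adjusted p = 0.266, DESeq2 adjusted p = 0.00135). Xbp1, a factor of the response in the endoplasmic reticulum, measured 65.7, 53.1 and 71.8 CPM without and 43.5, 37.6 and 45.7 CPM with stimulation.

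**Figure D3:**
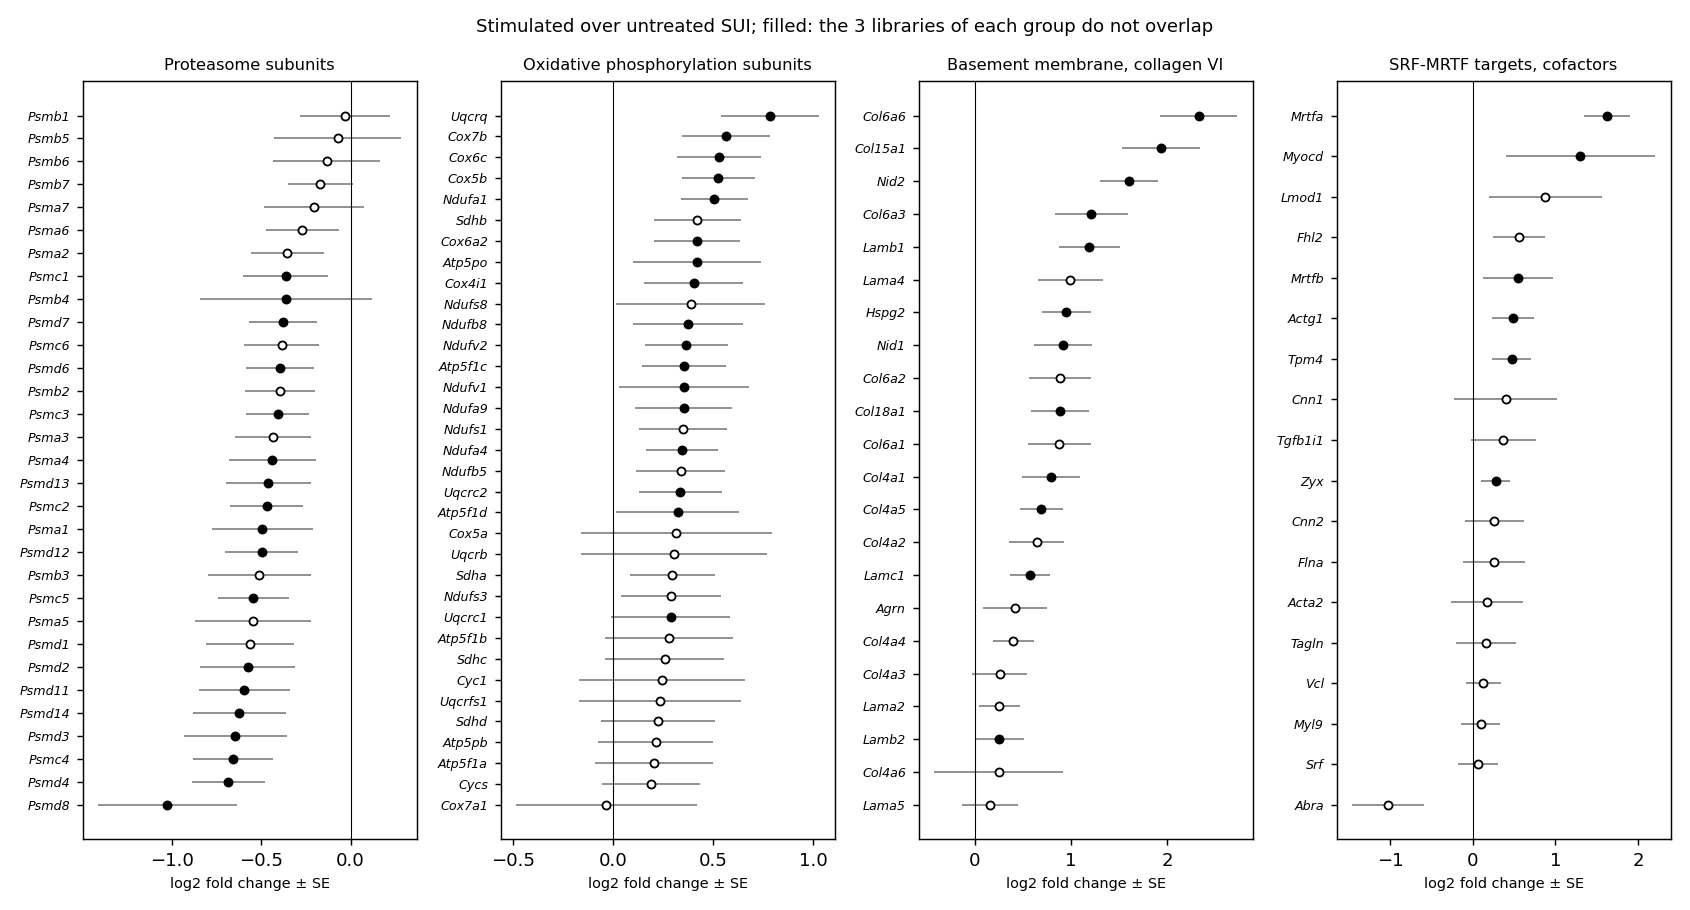
Log2 fold change ± SE (edgeR) of every tested member of 4 gene lists, sorted by fold, with filled points where the 3 stimulated and the 3 SUI libraries do not overlap. All 31 proteasome subunits lie below 0 and all 22 basement membrane and collagen VI genes above it, and the oxidative phosphorylation subunits reach 0.78 at most.

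Cish is a feedback inhibitor that cytokines and growth hormone induce through STAT5. It measured 0.974, 3.75 and 1.34 CPM in SUI and 14.1, 14.9 and 19.8 CPM after stimulation. The lowest stimulated library was nearly 4 times the highest SUI library (log2 fold change 3.01 ± 0.55 SE, edgeR adjusted p = 0.225, DESeq2 adjusted p = 1.99e-05). Socs2, another STAT5-induced inhibitor, measured 1.73, 2.88 and 3.31 CPM in untreated and 5.00, 9.05 and 9.97 CPM in stimulated muscle (log2 fold change 1.60 ± 0.41 SE, edgeR adjusted p = 0.390, DESeq2 adjusted p = 0.0277). Socs3, a target of STAT3, overlapped at 4.95, 2.01 and 1.82 CPM without and 1.51, 1.93 and 1.90 CPM with stimulation. The receptor Ghr (log2 fold change 0.05 ± 0.24 SE) and Stat5b (log2 fold change -0.26 ± 0.26 SE) differed by about their standard error or less. Lif, a cytokine that contracting muscle secretes, was scarce, at 0.0443, 0 and 0.103 CPM in SUI and 1.06, 0.715 and 1.61 CPM after stimulation, and separated (log2 fold change 4.52 ± 0.92 SE, edgeR adjusted p = 0.274, DESeq2 adjusted p = 1.99e-05).

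The Cish promoter is shown because the gene is a textbook STAT5 target. In its 300 bases (GRCr8 chr8:116850719-116851018, plus strand), the STAT motif TTCNNNGAA, in capitals, occurs 4 times.

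Cish: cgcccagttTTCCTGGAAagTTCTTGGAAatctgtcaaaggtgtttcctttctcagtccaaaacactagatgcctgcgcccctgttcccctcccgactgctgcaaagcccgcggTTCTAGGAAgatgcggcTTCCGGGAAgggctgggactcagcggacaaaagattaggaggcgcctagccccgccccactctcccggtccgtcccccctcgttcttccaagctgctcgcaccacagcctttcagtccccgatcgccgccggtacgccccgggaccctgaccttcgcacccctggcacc

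This motif occurs in 8.87% of the 33469 promoters, and 4 or more times in 2 of them (0.00598%). It also occurs in the promoters of Thbs1 and Ucp3, with 1 match each.

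IGF and mTOR genes had no common direction (14 higher and 12 lower, median 0.04, and -0.11 with library totals). Igf1, the growth factor, overlapped at 9.49, 3.73 and 3.36 CPM in untreated and 4.49, 16.0 and 14.3 CPM in stimulated muscle. Tsc1, which restrains mTOR, measured 26.1, 26.2 and 25.0 CPM without and 20.3, 15.6 and 19.6 CPM with stimulation. Rheb, which activates it, measured 47.2, 57.7 and 55.1 CPM in SUI and 44.4, 34.5 and 38.6 CPM after stimulation. Both were lower without overlap, at -0.48 ± 0.16 and -0.45 ± 0.17 (SE).

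Myf6, a myogenic transcription factor of mature fibres, had the smallest p of the lower genes after Plpp6. It measured 223, 415 and 438 CPM in untreated and 74.5, 65.5 and 68.3 CPM in stimulated muscle. The stimulated libraries lay close together and far below the lowest SUI library, which was SUI replicate 1. The log2 fold change was -2.37 ± 0.38 (SE; edgeR adjusted p = 0.181, DESeq2 adjusted p = 5.50e-07).

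The promoter of Myf6 (GRCr8 chr7:44701264-44701563, minus strand) is shown as that of the leading lower transcription factor. Capitals mark its match to the MEF2 motif, searched on both strands.

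Myf6: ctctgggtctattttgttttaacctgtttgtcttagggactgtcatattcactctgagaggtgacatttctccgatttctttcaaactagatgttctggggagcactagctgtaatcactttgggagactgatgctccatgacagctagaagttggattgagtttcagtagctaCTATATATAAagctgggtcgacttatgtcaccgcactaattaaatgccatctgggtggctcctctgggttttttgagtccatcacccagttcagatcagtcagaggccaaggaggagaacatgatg

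A MEF2 match occurs in 3.29% of the 33469 promoters. The other myogenic genes were mostly not lower: of 20 myogenic and fusion genes 14 were higher on the main scale and 10 with library totals. Myog, myogenin, overlapped at 50.1, 9.23 and 10.4 CPM without and 6.82, 12.6 and 13.6 CPM with stimulation, with SUI replicate 1 alone high. Satellite cell and Notch genes were higher in 15 of 18 (median 0.32), and none was called by either test. The receptor Notch2 measured 12.1, 11.5 and 9.78 CPM in SUI and 13.1, 21.8 and 14.6 CPM after stimulation. Its ligand Jag1 measured 12.5, 5.39 and 4.59 CPM in untreated and 3.42, 4.46 and 2.48 CPM in stimulated muscle. Both were narrowly separated, Notch2 higher and Jag1 lower.

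Slow and fast fibre genes were not separated between groups. Of 14 slow and 12 fast fibre genes, 0 had groups that did not overlap, against 9.52% higher and 9.28% lower of all genes. The medians of 0.16 and 0.18 turned to -0.10 and -0.07 without SUI replicate 1. Myh7, the slow myosin, measured 2050.2, 5683 and 4109 CPM without and 6187, 3591 and 5006 CPM with stimulation. Myh2, the fast IIa myosin, measured 34077, 43194 and 54443 CPM in SUI and 56358, 45915 and 51545 CPM after stimulation. Both overlapped. Myh1, Myh4, Myl1 and Atp2a1 of the fast list were not matched by symbol, so they were not analysed here. Myh13, a superfast myosin, measured 147, 192 and 256 CPM in untreated and 522, 691 and 491 CPM in stimulated muscle (log2 fold change 1.52 ± 0.31 SE, edgeR adjusted p = 0.274, DESeq2 adjusted p = 0.000718). Myh8, the perinatal myosin, measured 163, 241 and 327 CPM without and 456, 503 and 400.0 CPM with stimulation. Both were higher without overlap. Sarcomeric myosins are near-identical over long stretches, so the split of reads among them is uncertain.

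Of 22 ion channel genes, 4 were higher and 1 lower without overlap, and of 22 excitation-contraction coupling genes 2 and 0, against 9.52% and 9.28% of all genes. Clcn1, the chloride channel that sets the resting conductance of fibres, measured 30.1, 49.9 and 46.4 CPM in SUI and 83.7, 88.2 and 96.0 CPM after stimulation (log2 fold change 1.08 ± 0.24 SE, edgeR adjusted p = 0.290, DESeq2 adjusted p = 0.00605). Kcnj2, an inward rectifier potassium channel, measured 37.8, 20.7 and 23.0 CPM in untreated and 10.5, 9.79 and 13.4 CPM in stimulated muscle (log2 fold change -1.27 ± 0.30 SE, edgeR adjusted p = 0.319, DESeq2 adjusted p = 0.0162). The ion channel list as a whole was split, 13 higher and 9 lower, and its median turned from 0.08 to -0.02 with library totals. Rrad and Gem encode small GTPases that limit calcium channels. Rrad measured 1.74, 1.49 and 0.832 CPM without and 1.79, 5.18 and 4.99 CPM with stimulation, narrowly separated. Gem measured 3.15, 6.27 and 5.73 CPM in SUI and 8.50, 10.3 and 9.24 CPM after stimulation, also higher without overlap. Of the class II histone deacetylases listed, which carry calcium signals to the nucleus, Hdac9 and Hdac5 were higher and Hdac4 lower, each without overlap. Hdac5 was narrowly separated, at 40.7, 34.4 and 28.6 CPM in SUI and 41.1, 49.0 and 54.7 CPM after stimulation. Hdac9 measured 1.48, 1.85 and 0.874 CPM in untreated and 4.97, 11.4 and 9.23 CPM in stimulated muscle (log2 fold change 2.60 ± 0.52 SE, edgeR adjusted p = 0.274, DESeq2 adjusted p = 0.000398). Hdac4 measured 23.0, 34.1 and 21.6 CPM without and 16.1, 9.55 and 11.3 CPM with stimulation (log2 fold change -1.09 ± 0.29 SE, edgeR adjusted p = 0.425, DESeq2 adjusted p = 0.0454). Of 21 calcium signalling genes 17 were higher, 6 without overlap, against 9.52% of all genes.

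Nerve-related genes gave no common direction. Neuromuscular junction and denervation genes were 13 higher and 10 lower of 23 (median 0.03, -0.08 with library totals). The receptor kinase gene Musk measured 9.17, 4.47 and 6.31 CPM in SUI and 3.44, 3.25 and 4.07 CPM after stimulation. Its activator Dok7 measured 11.95, 10.0 and 13.3 CPM in untreated and 13.4, 31.7 and 28.7 CPM in stimulated muscle. The groups of each were separated, with Musk lower and Dok7 narrowly higher. The acetylcholine receptor subunits Chrna1 (log2 fold change -0.25 ± 0.58 SE), Chrnd (-0.07 ± 0.35) and Chrng (-0.15 ± 0.21) differed by less than their standard error. The subunits Chrnb1 and Chrne were also tested, and their values are not given here. Cd24, a surface glycoprotein counted with this list, measured 101, 181 and 135 CPM without and 47.9, 56.3 and 60.2 CPM with stimulation (log2 fold change -1.34 ± 0.26 SE, edgeR adjusted p = 0.266, DESeq2 adjusted p = 0.000242). Of the ErbB and neurotrophin list, Hbegf, a growth factor for EGF receptors, measured 1.65, 1.82 and 1.68 CPM in SUI and 9.69, 12.2 and 8.60 CPM after stimulation (log2 fold change 2.57 ± 0.51 SE, edgeR adjusted p = 0.266, DESeq2 adjusted p = 0.000179). Ret, the GDNF receptor, measured 2.14, 0.533 and 1.01 CPM in untreated and 2.57, 7.69 and 3.91 CPM in stimulated muscle. Hbegf was tight within each group. Cnp, a myelin enzyme, measured 14.1, 12.6 and 11.4 CPM without and 21.6, 21.0 and 19.3 CPM with stimulation (log2 fold change 0.70 ± 0.18 SE, edgeR adjusted p = 0.364, DESeq2 adjusted p = 0.0110), while the Schwann cell list was higher in 11 of 15.

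The energy metabolism genes listed differed mostly by small amounts. Of 34 oxidative phosphorylation subunits, 33 were higher, 17 without overlap, against 9.52% of all genes. The median of the 34 was 0.34 (0.21 without SUI replicate 1), and 33 were higher with library totals. None was called by either test. By complex the medians were 0.35 for complex I, 0.28 for complex II, 0.30 for complex III, 0.42 for complex IV and 0.30 for ATP synthase. Uqcrq, of complex III, measured 71.9, 65.0 and 94.9 CPM in SUI and 138, 129 and 132 CPM after stimulation (log2 fold change 0.78 ± 0.25 SE, edgeR adjusted p = 0.500, DESeq2 adjusted p = 0.116). Cox6c, of complex IV, measured 163, 188 and 195 CPM in untreated and 277, 261 and 251 CPM in stimulated muscle. Per length Cox6c was among the largest gains of the genes without overlap at an unadjusted edgeR p under 0.05. It measured 447 ± 26.5 FPKM in SUI and 583 ± 45.8 after stimulation (SD, n = 3). The 10 protein-coding transcripts of the mitochondrial genome that were listed and tested were all higher, 2 without overlap, against 9.52% of all genes. Other rows of that genome are not part of this list. Of 19 citric acid cycle genes, 17 were higher. Fatty acid oxidation genes had a median of 0.01 (-0.15 with library totals).

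Metabolic genes that respond to fasting or contraction had no common direction. Of 21 tested, 12 were higher and 9 lower, 1 and 2 of them without overlap, against 9.52% and 9.28% of all genes. Their median of 0.37 was 0.04 without SUI replicate 1, 0.16 without stimulated replicate 1, 0.16 without stimulated replicate 3 and 0.58 without stimulated replicate 2. Ucp3, a mitochondrial carrier induced by fatty acids, measured 302, 636 and 273 CPM without and 139, 33.8 and 96.2 CPM with stimulation (log2 fold change -2.17 ± 0.57 SE, edgeR adjusted p = 0.417, DESeq2 adjusted p = 0.00865). Angptl4, an inhibitor of lipoprotein lipase, measured 18.3, 12.1 and 4.11 CPM in SUI and 1.74, 1.15 and 2.28 CPM after stimulation (log2 fold change -2.74 ± 0.73 SE, edgeR adjusted p = 0.423, DESeq2 adjusted p = 0.00781). Outside that list, Pnpla7, a lysophospholipase, measured 356, 109.5 and 154 CPM in untreated and 64.6, 36.0 and 62.7 CPM in stimulated muscle. Acacb, also outside it, which makes the malonyl-CoA that holds back fatty acid oxidation, measured 519, 243 and 262 CPM without and 184, 119 and 171 CPM with stimulation. All 4 were lower without overlap. Ppargc1a, the coactivator of mitochondrial biogenesis, overlapped at 4.46, 9.13 and 11.5 CPM in SUI and 15.4, 9.03 and 11.7 CPM after stimulation. Nr4a2, an orphan receptor of exercised muscle, was higher mainly through stimulated replicate 3, at 1.31, 2.03 and 1.18 CPM in untreated and 3.76, 3.62 and 18.6 CPM in stimulated muscle.

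Immediate early genes were higher in 17 of 21 (median 0.72), 6 without overlap against 9.52% of all genes. DESeq2 called 3 of them higher, against 0.944% of the genes it tested. Csrnp1, a nuclear protein induced by growth factors, measured 5.94, 9.06 and 6.71 CPM without and 46.6, 14.0 and 41.9 CPM with stimulation (log2 fold change 2.24 ± 0.42 SE, edgeR adjusted p = 0.266, DESeq2 adjusted p = 0.000131). Klf10, induced by TGF-beta, measured 23.7, 45.8 and 34.9 CPM in SUI and 65.3, 92.0 and 147 CPM after stimulation. Atf3, a stress-induced factor, measured 2.51, 7.31 and 4.39 CPM in untreated and 18.8, 23.7 and 17.4 CPM in stimulated muscle. All 3 were higher without overlap, unlike Fos, Egr1 and Jun. Fos was high in stimulated replicate 3 and in no other library, at 7.72, 7.09 and 4.51 CPM without and 6.50, 8.28 and 77.6 CPM with stimulation. Egr1 overlapped at 26.2, 21.0 and 6.04 CPM in SUI and 16.97, 9.02 and 18.7 CPM after stimulation. Jun was lower without overlap, at 121, 165 and 85.3 CPM in untreated and 73.9, 66.4 and 55.2 CPM in stimulated muscle.

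Of 19 circadian clock genes, 12 were higher and 7 lower (median 0.43, 0.16 without stimulated replicate 1 and 0.69 without SUI replicate 2). Bmal1, Clock and Npas2, the activators, had folds of -1.38 ± 0.41, -0.68 ± 0.27 and -0.55 ± 0.46 (SE). Bmal1 measured 14.4, 9.82 and 9.63 CPM without and 6.77, 2.05 and 4.22 CPM with stimulation, lower without overlap, and the groups of Clock and Npas2 overlapped. Several repressors and output genes were higher, 5 of the list without overlap, against 9.52% of all genes. The repressors Cry1 and Nfil3 had negative folds (-0.20 ± 0.27 and -0.54 ± 0.50 SE) and Cry2 a positive one (0.20 ± 0.55 SE), each with overlap. Bhlhe40, a transcriptional repressor, measured 22.3, 69.6 and 35.4 CPM in SUI and 153, 173 and 186 CPM after stimulation (log2 fold change 2.01 ± 0.42 SE, edgeR adjusted p = 0.274, DESeq2 adjusted p = 0.00135). Nr1d2 measured 49.9, 44.5 and 46.2 CPM in untreated and 99.7, 85.1 and 78.7 CPM in stimulated muscle (log2 fold change 0.91 ± 0.21 SE, edgeR adjusted p = 0.311, DESeq2 adjusted p = 0.0157). Per3 measured 28.5, 21.9 and 23.4 CPM without and 31.6, 48.5 and 47.2 CPM with stimulation. Ciart measured 3.66, 10.3 and 6.002 CPM in SUI and 40.1, 16.5 and 28.3 CPM after stimulation (log2 fold change 2.08 ± 0.46 SE, edgeR adjusted p = 0.293, DESeq2 adjusted p = 0.00228). All 4 were separated between groups. The labels do not give the time of day at which muscle was taken, and its part in these values was not tested.

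The promoter of Ciart is shown because BMAL1 and CLOCK bind the E-box CACGTG, which it holds, in capitals, 3 times within 300 bases (GRCr8 chr2:186112197-186112496, minus strand).

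Ciart: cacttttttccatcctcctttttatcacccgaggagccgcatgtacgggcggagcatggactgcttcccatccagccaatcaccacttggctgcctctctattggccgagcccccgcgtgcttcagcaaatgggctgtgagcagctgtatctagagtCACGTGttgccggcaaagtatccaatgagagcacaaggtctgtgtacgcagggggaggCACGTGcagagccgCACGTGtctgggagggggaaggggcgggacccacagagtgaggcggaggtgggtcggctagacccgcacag

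This E-box occurs in 6.42% of the 33469 promoters, and 3 or more times in 19 of them (0.0568%). Of 16 tested clock genes with a promoter sequence 5 hold it, and all 5 had positive folds: Bhlhe40, Bhlhe41, Ciart, Nr1d1 and Tef. The smallest of these was that of Tef, at 0.09 ± 0.35 (SE), with overlap.

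Glucocorticoid-responsive genes were lower in 14 of 20 (median -0.21, -0.37 without stimulated replicate 1). Of the 20, 3 were lower and 1 higher without overlap, against 9.28% and 9.52% of all genes. Glul, glutamine synthetase, had the largest difference per length among the lower genes named, at 2382, 2674 and 2544 CPM in untreated and 1661, 925 and 1755 CPM in stimulated muscle (log2 fold change -0.81 ± 0.34 SE), and its groups did not overlap. Cebpd, a hormone-induced factor, measured 119, 56.9 and 52.4 CPM without and 43.3, 26.6 and 39.4 CPM with stimulation, lower without overlap. The receptor Nr3c1 measured 36.5, 52.0 and 43.2 CPM in SUI and 83.7, 65.5 and 68.8 CPM after stimulation, higher without overlap. Of the steroid receptor list, which bears on the loss of the ovaries in both groups, Esr1, the oestrogen receptor alpha, overlapped at 0.301, 1.72 and 3.50 CPM in untreated and 3.13, 5.45 and 5.71 CPM in stimulated muscle. Nr3c2, the mineralocorticoid receptor, measured 7.46, 15.3 and 12.2 CPM without and 26.2, 20.3 and 19.8 CPM with stimulation, higher without overlap.

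Immune genes were high in stimulated replicate 2, and their medians turned without it. Interferon-stimulated genes were higher in 21 of 23 (median 0.82), 0 without overlap, against 9.52% of all genes. Without that library 8 of 23 were higher (median -0.25). Irf7, the factor that amplifies the response, measured 3.38, 4.95 and 4.70 CPM in SUI and 1.78, 48.7 and 3.65 CPM after stimulation. Macrophage, dendritic and monocyte markers had a median of 0.53, and -0.32 without that library, with summed levels of 208, 114 and 98.2 FPKM in SUI and 58.9, 391 and 176 after stimulation. Complement genes turned from 0.26 to -0.28. Endothelial genes were higher in 18 of 24 (median 0.33, 0.17 without stimulated replicate 2), among them Cdh5, the endothelial cadherin, at 65.2, 47.5 and 57.6 CPM in untreated and 101, 125 and 84.3 CPM in stimulated muscle. Erythroid markers, a sign of blood in the tissue, were higher in 8 of 8 (7 with library totals) but led by stimulated replicate 3, with summed levels of 747, 157 and 235 FPKM in SUI and 262, 271 and 1610.3 after stimulation.

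Markers of other tissues and of dividing cells gave smaller or less even differences. Cell cycle genes were higher in 19 of 22 (median 0.51, 0.26 without stimulated replicate 2), 6 without overlap, against 9.52% of all genes. Smooth muscle and pericyte markers were higher in 14 of 15 (9 with library totals), with a median of 0.23 that was 0.05 on that scale. Adipocyte markers were split evenly, at 7 of 14 higher, and so were lymphocyte and granulocyte markers, at 5 of 10, and epithelial and urothelial markers, at 4 of 8. Tendon, cartilage and bone markers were higher in 9 of 16. Among stress genes, cytosolic heat shock proteins were higher in 9 of 23 and antioxidant and NRF2 targets in 9 of 24, and the median of the latter turned from -0.18 to 0.04 without SUI replicate 1.

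**Figure D4:**
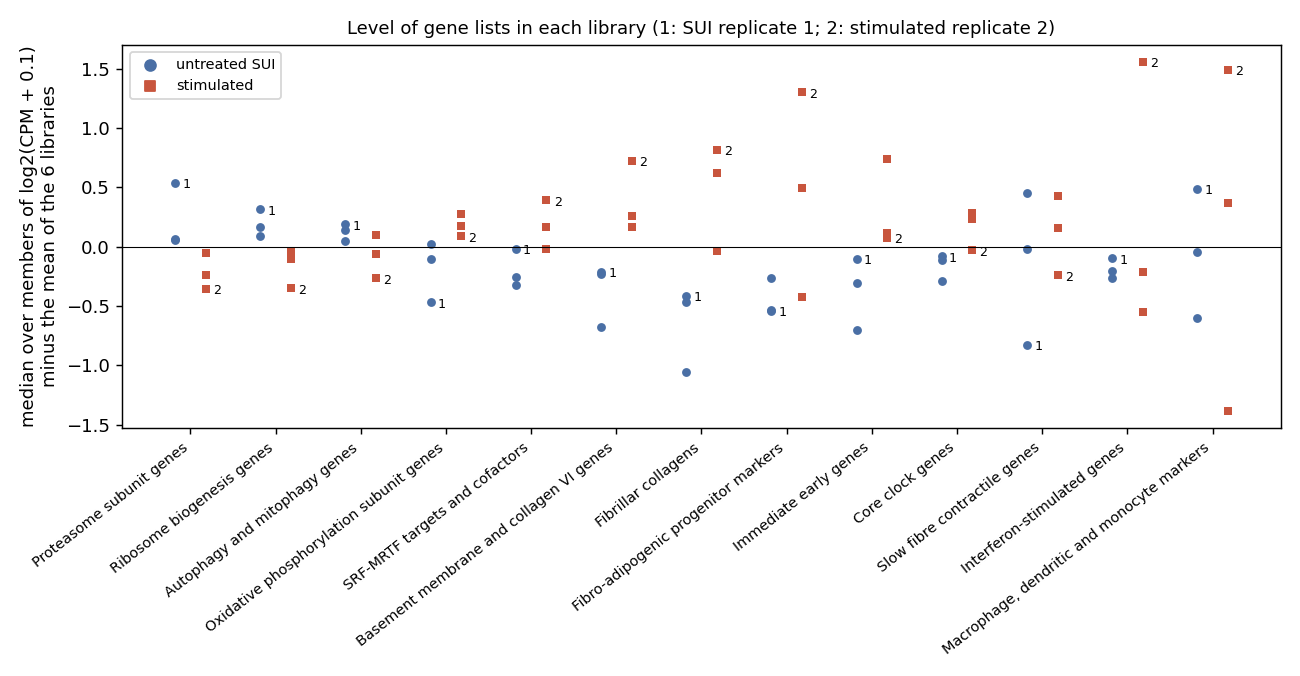
For 13 gene lists, the median over members of log2(CPM + 0.1) in each library minus the mean of the 6 libraries, with untreated SUI as circles and stimulated as squares. SUI replicate 1 (marked 1) is the highest in the proteasome list and the lowest in the slow fibre list, and stimulated replicate 2 (marked 2) stands far above the rest in the interferon list.

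**Figure D5:**
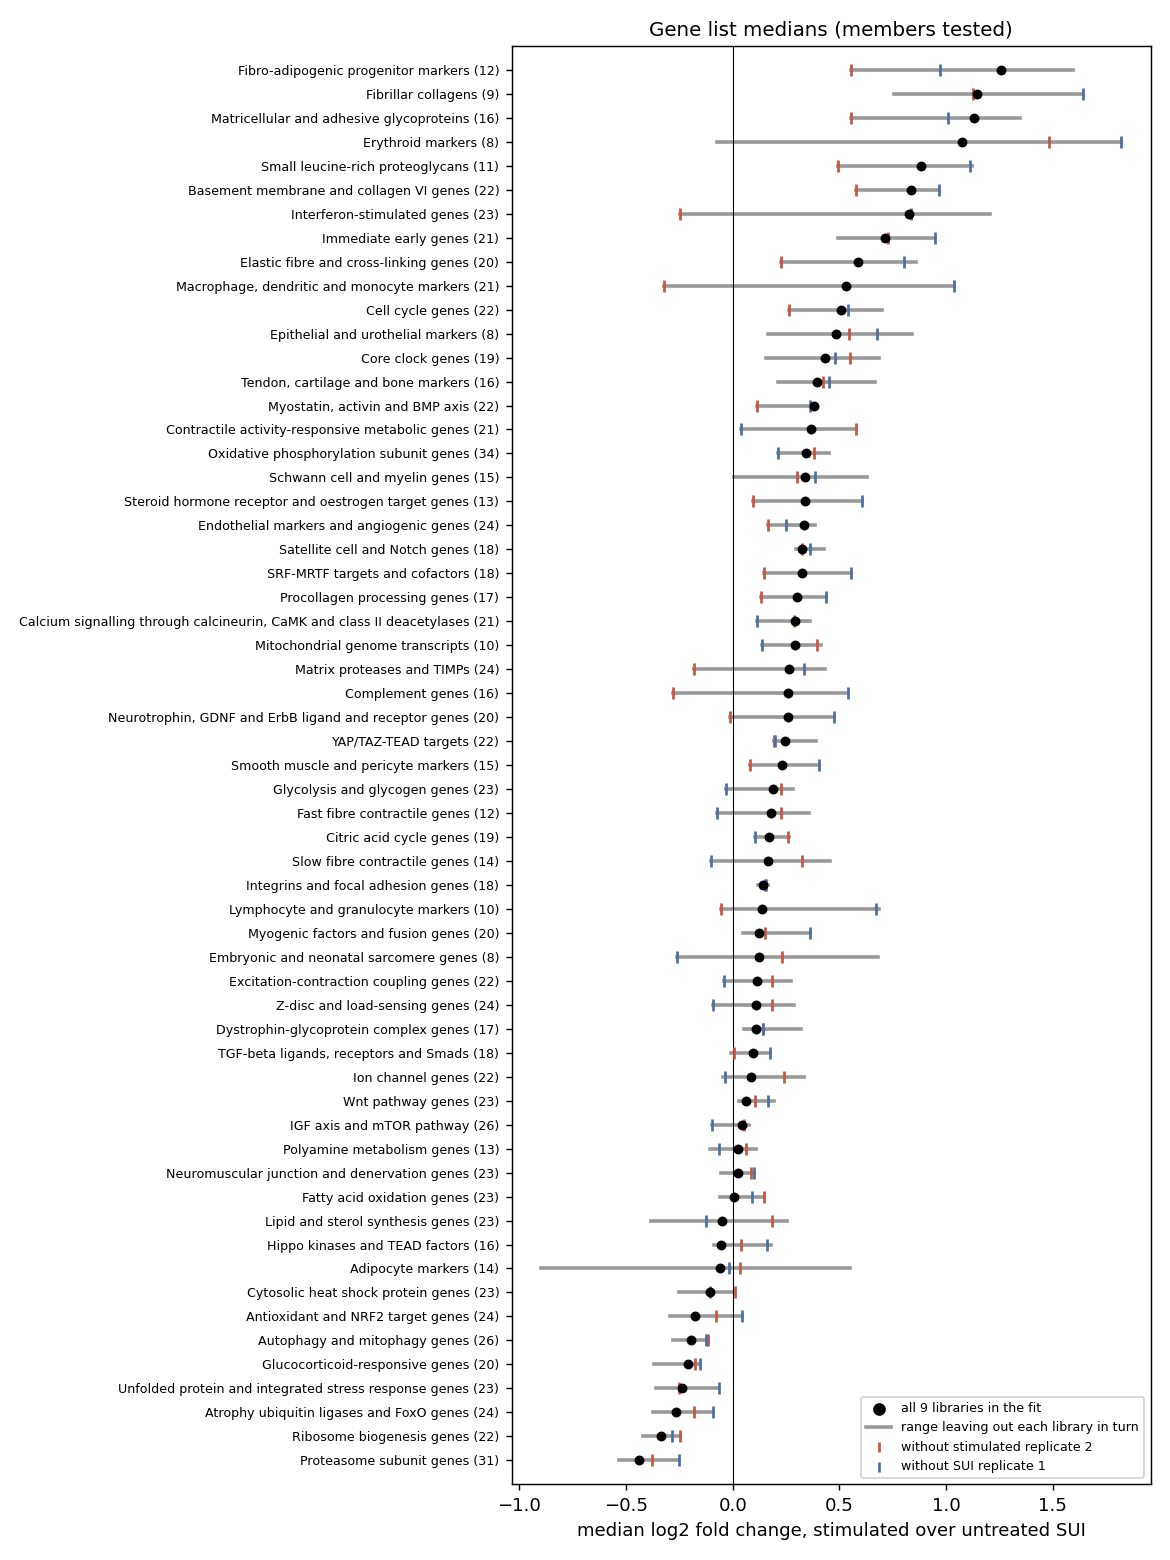
Median log2 fold change of the tested members of all 59 gene lists (dots), with the range over fits that leave out each of the 9 libraries in turn (grey) and the values without stimulated replicate 2 (red) and without SUI replicate 1 (blue). Fibro-adipogenic, collagen and matricellular lists stand at the top and the proteasome list at the bottom, and the interferon and macrophage lists cross 0 without stimulated replicate 2.

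Further genes that ranked high by the naming rule were of mixed function. Tmem131l, a membrane regulator of Wnt signalling, measured 13.6, 13.4 and 11.3 CPM without and 39.9, 33.7 and 28.3 CPM with stimulation (log2 fold change 1.41 ± 0.19 SE, edgeR adjusted p = 0.118, DESeq2 adjusted p = 2.54e-07). Dkk2, a secreted Wnt antagonist, measured 2.13, 2.95 and 3.55 CPM in SUI and 9.45, 10.5 and 8.04 CPM after stimulation. Every stimulated value of both genes was more than 2 times the highest SUI value. Mest, an imprinted gene of mesoderm, measured 2.18, 1.55 and 3.70 CPM in untreated and 8.43, 11.9 and 11.6 CPM in stimulated muscle. Nck2, an adaptor of receptor kinases, measured 8.59, 12.9 and 12.7 CPM without and 25.3, 27.6 and 26.7 CPM with stimulation. Angptl1, a secreted angiopoietin-like protein, measured 2.51, 3.93 and 3.26 CPM in SUI and 8.77, 24.8 and 14.8 CPM after stimulation. Nck2 was the most even of these, and Angptl1 spread most after stimulation. Rusc2, a vesicle transport adaptor, measured 14.4, 11.99 and 10.3 CPM in untreated and 33.0, 146 and 99.8 CPM in stimulated muscle. Cpa1, a carboxypeptidase of the pancreas, measured 0.655, 0.497 and 1.32 CPM without and 4.86, 7.27 and 4.41 CPM with stimulation. Fam184b measured 0.0708, 0.253 and 1.18 CPM in SUI and 2.87, 4.61 and 3.74 CPM after stimulation. Each of these 8 was higher without overlap, and the naming rule required that their groups not overlap. The pancreatic gene was scarce, at 0.445 ± 0.198 FPKM in SUI and 2.80 ± 1.03 after stimulation (SD, n = 3).

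On the lower side, Lrrc30, a leucine-rich repeat gene, measured 40.3, 6.53 and 20.4 CPM in untreated and 4.09, 1.50 and 2.08 CPM in stimulated muscle (log2 fold change -3.13 ± 0.62 SE, edgeR adjusted p = 0.266, DESeq2 adjusted p = 4.95e-05). Galnt15, a glycosyltransferase, measured 29.3, 39.2 and 21.1 CPM without and 9.47, 10.4 and 7.86 CPM with stimulation. Slc43a3, a nucleobase transporter, measured 21.4, 16.2 and 12.3 CPM in SUI and 3.84, 6.69 and 7.76 CPM after stimulation. Lrrc30 varied widely among the SUI libraries and Galnt15 and Slc43a3 less. Qtrt2, a subunit of the enzyme that puts queuine into tRNA, measured 3.28, 4.22 and 5.67 CPM in untreated and 1.54, 1.99 and 1.29 CPM in stimulated muscle. Spetex2l3, of a multigene family whose reads may be split among copies, measured 17.2, 15.5 and 15.3 CPM without and 5.32, 5.72 and 3.75 CPM with stimulation. Map7d2, a microtubule protein, measured 13.3, 59.4 and 43.2 CPM in SUI and 11.2, 4.08 and 2.80 CPM after stimulation. Lclat1, an acyltransferase of cardiolipin, measured 17.2, 11.04 and 12.97 CPM in untreated and 3.66, 2.85 and 3.68 CPM in stimulated muscle, but 2.76 ± 1.04 FPKM in SUI and 1.82 ± 0.151 after stimulation (SD, n = 3), a smaller difference on the length-scaled values. None of these 7 overlapped between groups, which the naming rule required of them. Tuba4a, an alpha tubulin, measured 617, 743 and 761 CPM without and 532, 306 and 403 CPM with stimulation, lower without overlap. Among the gains per length, Mlf1 measured 83.4, 212 and 399 CPM in SUI and 401, 486 and 508 CPM after stimulation, narrowly separated through SUI replicate 3.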

How the data were processed

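Per the labels, RNA of the pubococcygeus was sequenced in 3 blank, 3 untreated SUI and 3 stimulated libraries, all with the same batch label. Tools listed in the submitters' processing notes are RSEM 1.3.1, Bowtie2 and DESeq2 1.4.5, with mRatBN7.2 as the build. What each tool did, the annotation and any strand setting are not given in the sources used here. A deposited count table holds the authors' expected counts per gene, which were rounded to whole numbers here, and a second deposited table holds FPKM from the authors, used only for abundance and for an alternative test. Of 30518 rows, 4341 have no gene symbol and 916 share an Ensembl identifier. Every column of the tables was mapped to a library.

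Samples were grouped by their titles. Genes were kept with edgeR 4.0.16's filterByExpr (R 4.3.3), and the 9 libraries were scaled together with TMM. All 9 were fitted together with the robust quasi-likelihood model without a block. The blank libraries thus add to the estimate of spread and to the scaling. The contrast was stimulated minus SUI, with Benjamini-Hochberg adjustment over the 16256 genes tested and a threshold of 0.05. The SE is the absolute log2 fold change over the square root of F. DESeq2 1.42.0 and limma 3.58.1 (voom with sample weights, and log2(FPKM + 1) or log2(FPKM + 0.1)) were alternatives, with other scalings, filters and each library left out. The fit without both SUI replicate 1 and stimulated replicate 2 was chosen after seeing the data. The code was tested on simulated data.

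The members and gene lists were chosen with earlier results of these data known. The 59 lists name 1209 genes, of which 1161 were matched and 1119 tested, counting a gene once per list. Genes were named by rule: those past the threshold, the 12 smallest p in each direction among genes with a mean CPM of 1 or more and no overlap between groups, the 6 largest folds at p under 0.01, the 5 largest FPKM differences at p under 0.05, the 3 smallest p of each list and a fixed set. The rule named 201 genes. Dcn, Smoc2, Hdac5, Cry1, Cry2 and Nfil3 are mentioned as list members after their values were seen, and are not among the genes named. Socs2, Socs3, Myh13, Lox, Bmal1, Vcan, Diaph1, Stat5b, Ghr, Pnpla7, Hspg2, Col15a1, Tgfb1, Psmb5, Ccn1, Ankrd1, Trim55, Dok7, Chrna1, Chrnd, Chrng, Fos, Egr1, Jun, Clock, Npas2, Per3, Tef, Bhlhe41 and Nr1d1 were named after their values were seen where the rule did not name them. Promoter sequences, from 250 bases before to 50 after each start, are from RefSeq on GRCr8. Of 22 genes looked up, 15 were found. They were matched by symbol and no coordinate was carried between builds.

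A count of 3 in a library of these 6 corresponds to 0.0210 to 0.0308 CPM. This floor covers counting error only.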

Additional observations from a re-analysis of the deposited data

How the results depend on the processing

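The count of genes past edgeR's adjusted threshold was 2. It was 0 with only the 6 libraries, 0 with limma on log2(FPKM + 0.1) and 0 with limma on log2(FPKM + 1), 0 without SUI replicate 1 and stimulated replicate 2 together, 1 with library totals and 1 with the replicate block, against 208 with DESeq2 and 48 with voom. Leaving out each library in turn gave 0 to 3 calls. At an unadjusted p under 0.05, 1300 genes became 694 without SUI replicate 1 and stimulated replicate 2 together and 2988 with voom, and 754 (without stimulated replicate 2) to 2224 (without blank replicate 1) when each library was left out. The share of higher genes among them ranged from 43.82% with limma on log2(FPKM + 1) to 73.03% without SUI replicate 1. The cause was not tested. SUI and stimulated libraries of the same number did not deviate together (correlations of -0.218, -0.069 and -0.016), so the labels' numbers were not used as pairs. The replicate block left 1092 genes at an unadjusted p under 0.05. Of 230 genes named by the rule or after their values were seen, 212 kept the sign of their fold in every alternative, as did 30 of the 59 list medians; 29 medians changed sign in at least 1. With 3 libraries a group and stimulated libraries deeper than SUI libraries, genes near the floor are the least certain.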
